A study of Homo sapiens with 9 samples.

Results

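The AP-1 and immediate early genes FOS, FOSB, FOSL1, FOSL2, JUN, JUNB, JUND, MYC, EGR1 and IER2 were followed across 9 RNA sequencing libraries. They were chosen by symbol, and each of the 10 matched 1 line among the 62703 genes of the deposited table. All 10 had a mean of at least 1 TPM (a transcript level scaled for gene length and library size) and entered the test with 13443 genes in all. The cells were labelled HepG2, a hepatocellular carcinoma line, and every group had received 750 µM palmitic acid for 24 h. In 3 libraries 20 µM curcumin, the yellow polyphenol from turmeric, and 5 µM CuCl2 followed for 12 h. In 3 libraries 20 µM curcumin followed for 12 h without CuCl2, and 3 libraries came from cells with palmitic acid alone. The labels describe neither cells without palmitic acid nor a vehicle control, nor a further 12 h for palmitic acid alone, so treatment and any difference in culture time cannot be told apart. The label HepG2 was checked against 12 hepatocyte genes, all of which had a mean under 1 TPM. ALB, APOA2, APOB, TTR and FGB were listed at 0 in every library, so the cells are called cells labelled HepG2. A library had 13208 to 13737 genes at 1 TPM or more, and genes of mitochondrial DNA held 10.1% to 13% of the TPM. In such bulk samples, fewer cells that express a gene and less of its RNA per cell cannot be told apart.

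AP-1 is a transcription factor made of a pair of basic leucine zipper proteins. Jun proteins can pair with each other or with a Fos protein, whereas Fos proteins need a Jun partner. Many of their genes, with EGR1, MYC and IER2, are immediate early genes, switched on within minutes of a growth factor or stress signal by transcription factors already present, and most of their transcripts are short-lived. JUND is an exception in being expressed steadily in resting cells. In liver and hepatoma cells AP-1 is known for its part in regeneration, in stress signalling through the kinase JNK and in inflammatory gene expression.

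On the log2(TPM + 1) scale, JUND had the largest change of the 10 genes in both comparisons with palmitic acid alone. Its level was 129, 141 and 122 TPM with curcumin and CuCl2, 139, 119 and 132 TPM with curcumin, and 244, 201 and 225 TPM with palmitic acid alone. All 6 curcumin libraries were below all 3 with palmitic acid alone. JUND fell by 41.6% with curcumin and CuCl2, which was -0.77 on the log2(TPM + 1) scale (SE 0.09, adjusted p = 0.00594 from limma by the Benjamini-Hochberg method). With curcumin it fell by 41.8%, also -0.77 on that scale (SE 0.09, limma adjusted p = 0.00481). It passed in all 19 alternatives of the processing, including each library left out, in both comparisons. Over these, the limma adjusted p ranged from 0.0024 to 0.0445 with curcumin and CuCl2. With curcumin it ranged from 0.00224 to 0.0493, so the highest values lay just under the threshold of 0.05. Since the 2 comparisons share their 3 control libraries, the likeness of the values is not independent support. JUND lies at chr19:18279760-18281622 on the minus strand (GRCh38, GENCODE release 29). Its longest annotated transcript has 1 exon, and no other annotated gene overlaps it.

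In the background of all genes tested, 1.44% passed with curcumin and CuCl2 against palmitic acid alone (0.543% higher and 0.9% lower). With curcumin against palmitic acid alone, 1.96% passed (0.759% higher and 1.21% lower). Of the 10 members, JUND alone passed in the first comparison, and JUND and MYC in the second, all lower. Members with no overlap between libraries numbered 6 lower and 1 higher in the first comparison, where 10.3% of all genes tested were lower and 8.67% higher without overlap. In the second, 3 were lower and none higher, against 8.61% and 8.15% of all genes tested. The median log2 difference of the 10 members was -0.27 with curcumin and CuCl2 and -0.14 with curcumin, beside medians of -0.03 and -0.02 over all genes tested. These members' medians moved with single libraries. With curcumin and CuCl2 the median was between -0.39 without replicate 3 and -0.18 without replicate 1 of palmitic acid alone, and within 1.5 times its value without any other. With curcumin it was -0.24 without replicate 3 and -0.0247 without replicate 1 of palmitic acid alone, and -0.21, -0.09 and -0.05 without replicates 1, 2 and 3 of curcumin. Without replicate 3 of palmitic acid alone, 3 members passed in each comparison (JUND, MYC and JUN), and without any other single library only JUND did.

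**Figure D1:**
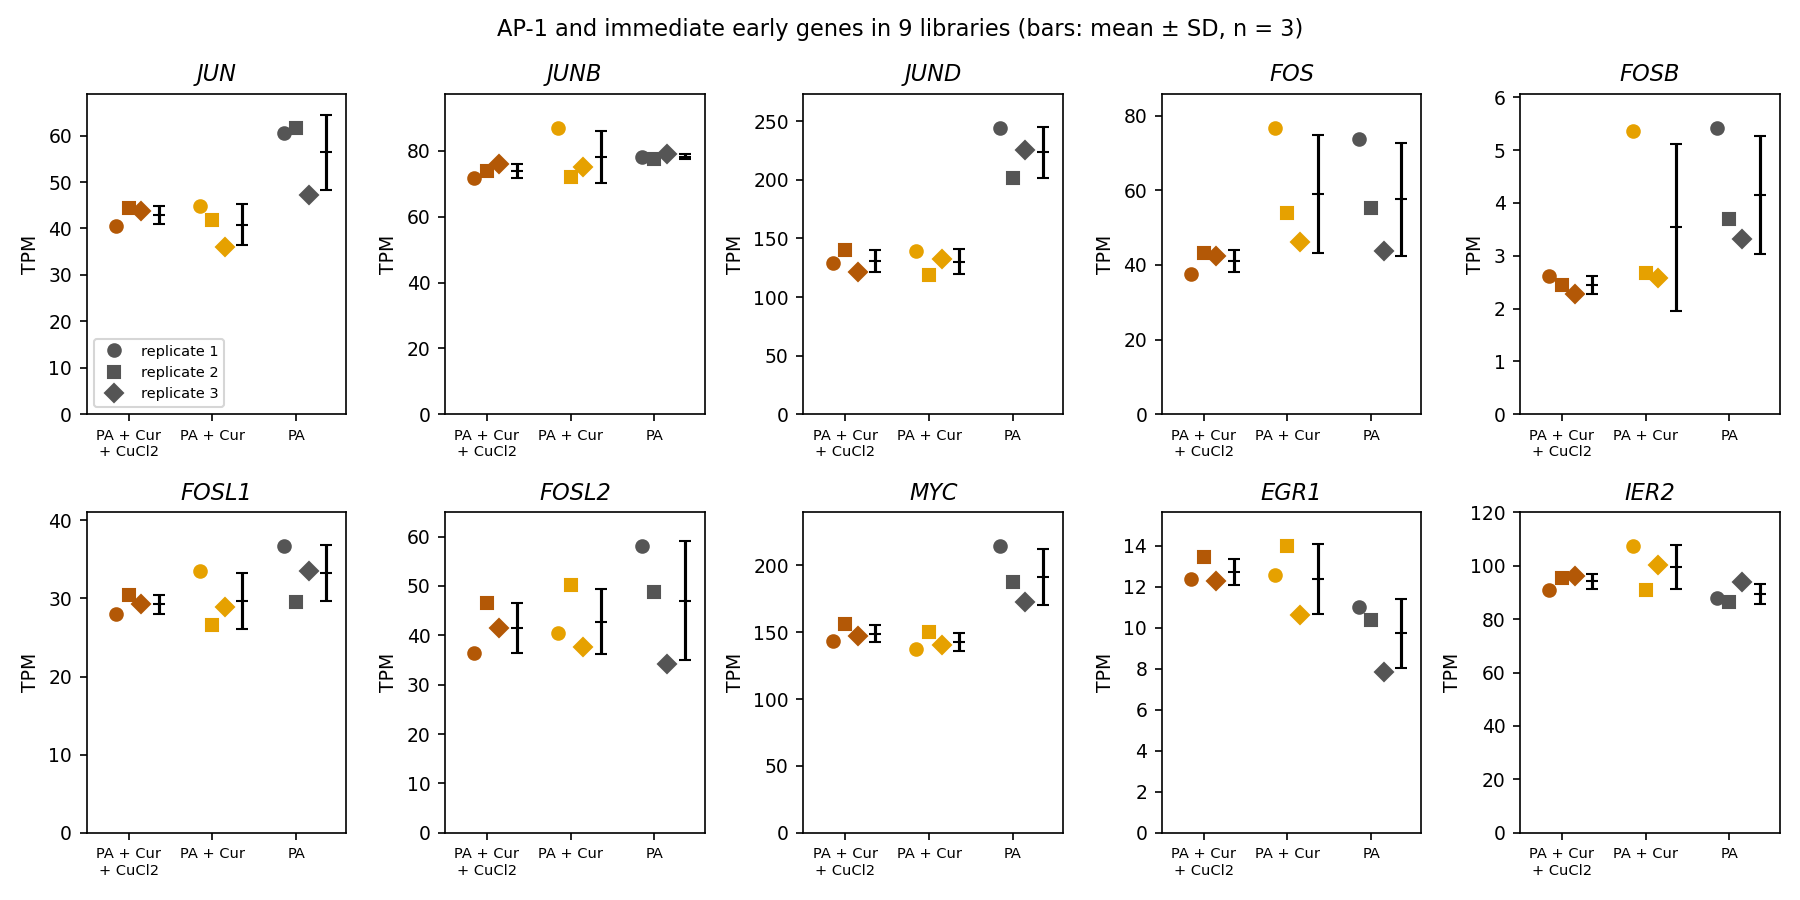
Level of each of the 10 genes in TPM (vertical axis, from 0) in the 3 libraries of each treatment (points, with the symbol giving the replicate) and the mean ± SD (bars). JUND lies between 119 and 141 TPM in the 6 curcumin libraries and between 201 and 244 TPM with palmitic acid alone, and JUNB lies between 71.8 and 87.0 TPM throughout.

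The other 2 Jun genes did not pass the test. JUN encodes c-Jun, the target of the stress kinase JNK after which the family is named. It is a single-exon gene at chr1:58780788-58784327 on the minus strand. It had 40.6, 44.3 and 43.7 TPM with curcumin and CuCl2, 44.7, 41.7 and 35.99 TPM with curcumin, and 60.5, 61.7 and 47.1 TPM with palmitic acid alone. The curcumin libraries were all below those with palmitic acid alone, but replicate 3 of palmitic acid alone, at 47.1 TPM, lay close to the highest of them. The log2 difference was -0.38 (SE 0.12, limma adjusted p = 0.174) with curcumin and CuCl2 and -0.45 (SE 0.12, limma adjusted p = 0.1) with curcumin, so neither passed. JUN passed without replicate 3 of palmitic acid alone, at -0.50 (limma adjusted p = 0.0308) and -0.58 (limma adjusted p = 0.0188). With curcumin and no CuCl2, it also passed under median-of-ratios scaling (limma adjusted p = 0.0451) and with mitochondrial share as a covariate (limma adjusted p = 0.0312). Over its 19 alternatives the limma adjusted p ranged from 0.0308 to 0.467 with curcumin and CuCl2 and from 0.0188 to 0.318 with curcumin.

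JUNB encodes a Jun protein that activates transcription more weakly than c-Jun and can oppose it. It is a single-exon gene at chr19:12791496-12793315 on the plus strand, overlapped by HOOK2 on the opposite strand. It had 71.8, 73.9 and 76.1 TPM with curcumin and CuCl2, 87.0, 72.0 and 75.2 TPM with curcumin, and 78.2, 77.4 and 79.0 TPM with palmitic acid alone. The curcumin and CuCl2 libraries lay just below those with palmitic acid alone, and the curcumin libraries overlapped them. The 95% interval of the log2 difference was -0.26 to 0.10 with curcumin and CuCl2 and -0.18 to 0.17 with curcumin, which leaves out a fall of the size seen for JUND. The sign of the second estimate, -0.01, turned to 0.03 under median-of-ratios scaling.

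The makeup of the Jun family transcripts is described by shares. JUND held 53.5%, 54.3% and 50.4% of the summed Jun family TPM with curcumin and CuCl2, and 51.4%, 51.1% and 54.3% with curcumin. With palmitic acid alone it held 63.8%, 59.1% and 64.1%, above all 6 curcumin libraries. The share of JUNB was 29.9 ± 1.48% with curcumin and CuCl2, 31.3 ± 0.667% with curcumin and 21.9 ± 1.28% with palmitic acid alone (SD, n = 3 each). The share of JUN was 17.4 ± 0.677%, 16.4 ± 1.59% and 15.8 ± 2.35% in these treatments, with overlapping libraries. The summed level of the family was 247 ± 9.94 TPM with curcumin and CuCl2, 249.1 ± 20.0 TPM with curcumin and 358 ± 22.3 TPM with palmitic acid alone. Shares of a sum depend on each other, so a larger share need not be a higher level. The mean level of JUNB was 73.9 TPM with curcumin and CuCl2, 78.1 TPM with curcumin and 78.2 TPM with palmitic acid alone. These shares are given as a description with no test.

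**Figure D2:**
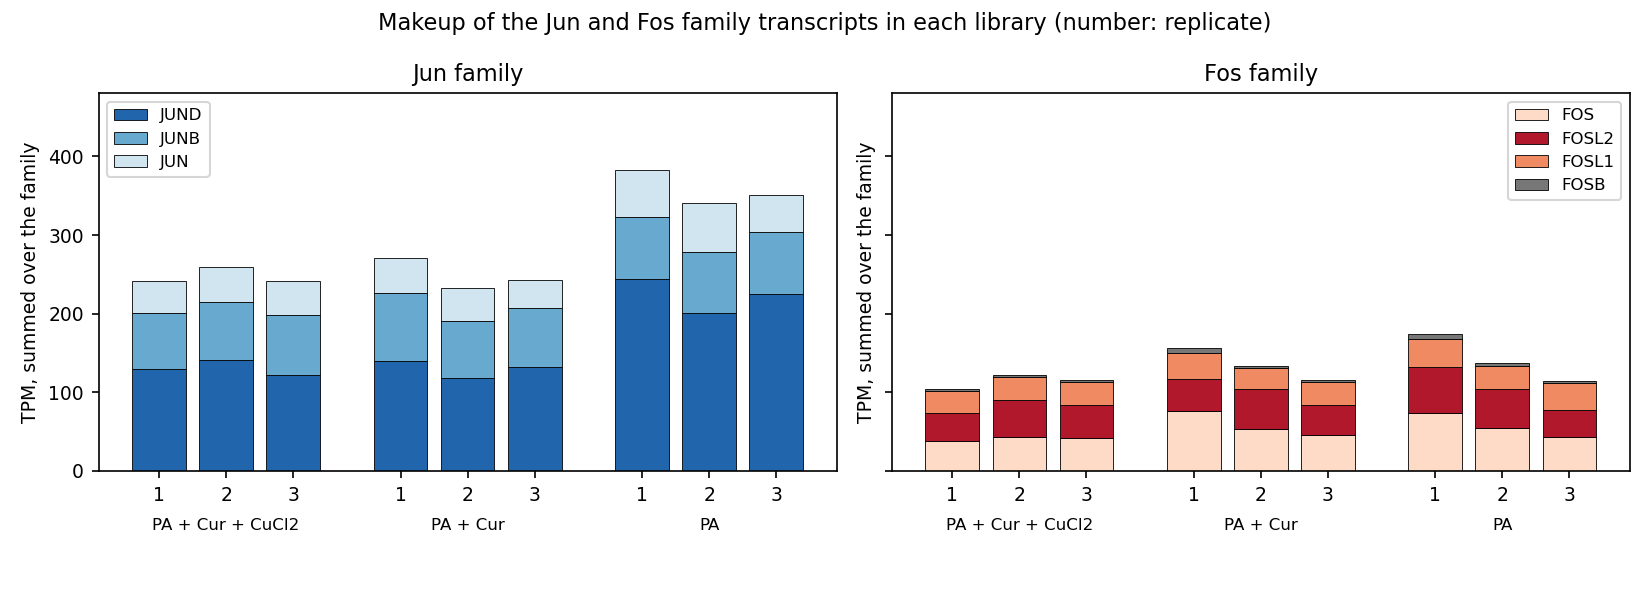
Stacked TPM of the Jun family (left) and Fos family (right) in each library, with replicate numbers under the bars. The summed Jun family reaches 340 to 383 TPM with palmitic acid alone and 233 to 271 TPM in the 6 curcumin libraries, with JUND as the largest part of every Jun family bar, while the Fos family overlaps between treatments, at 105 to 174 TPM.

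The promoters of the 3 Jun genes are shown because JUND passed, JUN had lower libraries without overlap and did not pass, and the estimates of JUNB lay near 0. The sequences are the 250 bases before the RefSeq transcription start (GRCh38.p14), 5′ to 3′ on the strand of the gene. Capitals mark a match to TGACNTCA, an octamer of the kind bound by ATF and CREB proteins and by Jun with ATF2, searched on both strands. JUND is at chr19:18281623-18281872 on the minus strand, JUN at chr1:58784048-58784297 on the minus strand and JUNB at chr19:12791236-12791485 on the plus strand.
JUND: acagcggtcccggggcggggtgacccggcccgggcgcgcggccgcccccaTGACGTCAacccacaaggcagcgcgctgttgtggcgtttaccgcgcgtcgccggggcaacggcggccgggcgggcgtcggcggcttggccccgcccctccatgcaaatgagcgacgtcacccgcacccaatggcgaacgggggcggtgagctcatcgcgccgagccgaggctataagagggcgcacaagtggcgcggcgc
JUN: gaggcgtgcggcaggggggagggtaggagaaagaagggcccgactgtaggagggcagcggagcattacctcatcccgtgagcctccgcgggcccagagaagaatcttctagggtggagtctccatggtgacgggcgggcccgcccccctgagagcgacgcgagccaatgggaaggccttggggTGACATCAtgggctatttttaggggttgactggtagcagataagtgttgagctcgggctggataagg
JUNB: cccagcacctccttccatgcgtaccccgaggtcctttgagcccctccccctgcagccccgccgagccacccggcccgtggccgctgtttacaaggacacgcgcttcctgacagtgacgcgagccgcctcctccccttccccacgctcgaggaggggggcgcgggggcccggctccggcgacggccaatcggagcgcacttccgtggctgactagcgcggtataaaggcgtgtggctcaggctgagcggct
JUND holds 1 match, the palindrome starting 200 bases before the start, and JUN holds 1 match starting 67 bases before the start. In JUNB these letters are not in the window. Promoter sequences were matched for 8 of the 10 members (FOSL1 and MYC had none here), and in a window of 300 bases that also takes the first 50 transcribed bases, JUND and JUN were the only 2 of the 8 with this octamer. It is present in 7.72% of 35114 promoter windows of the same length. The shorter half-site TGACG, which lies inside some of the octamers, is in 24.6% of all windows and in all 8 of these. JUND has 3 copies. Those starting 200 and 197 bases before the start are the 2 strands of its octamer, and the other starts 86 bases before the start. A match is a description of the letters and not a measured binding site. The 3 promoters were picked by the response of their genes, and a link between the octamer and the falls was not tested.

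**Figure D3:**
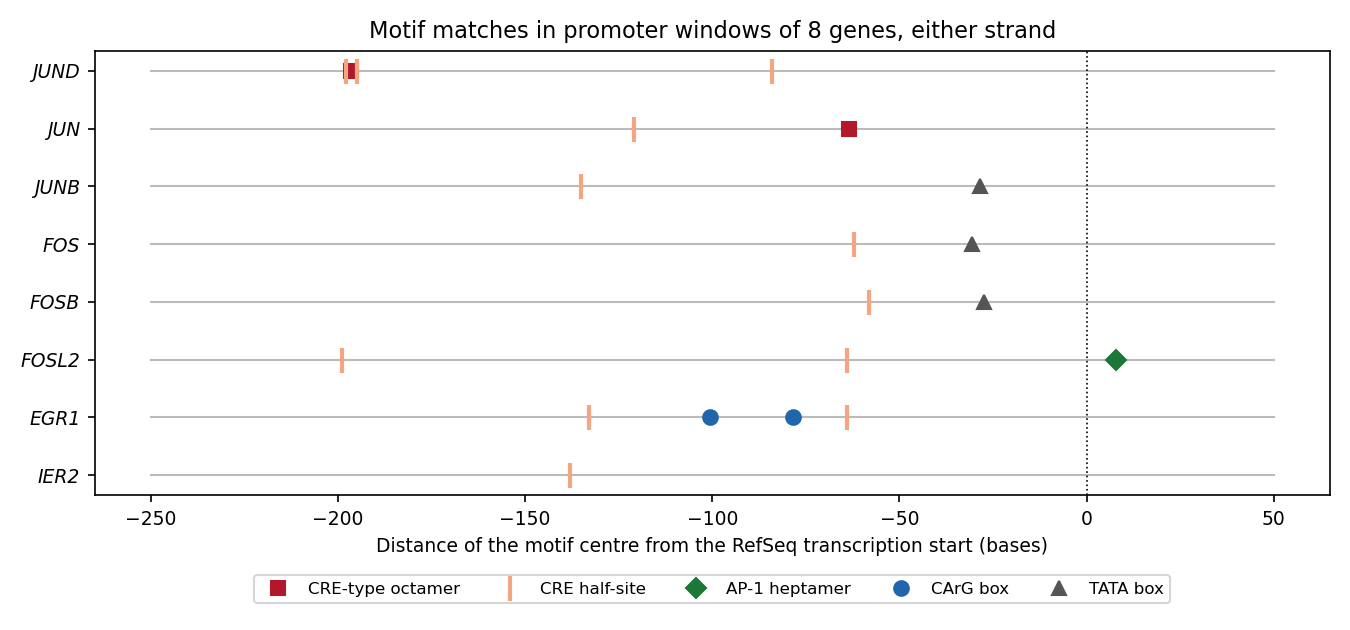
Position of motif matches on either strand in the promoter windows of 8 members, as the distance in bases of the motif's centre from the RefSeq transcription start (horizontal axis). The CRE-type octamer (TGACNTCA) is marked in JUND and JUN, the CArG box in EGR1, the AP-1 heptamer (TGANTCA) in FOSL2, and TATAAA in JUNB, FOS and FOSB.

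In the Fos family no member passed. FOS encodes c-Fos, the classic partner of c-Jun. The gene has 4 exons at chr14:75278774-75282230 on the plus strand. Its level was 37.7, 43.1 and 42.3 TPM with curcumin and CuCl2, 76.7, 53.9 and 46.2 TPM with curcumin, and 73.8, 55.2 and 43.6 TPM with palmitic acid alone. The CuCl2 libraries were below all 6 others, whereas those of the other 2 treatments overlapped, each with replicate 1 highest. The log2 difference was -0.45 (95% interval -0.92 to 0.02, limma adjusted p = 0.398) with curcumin and CuCl2, and 0.03 (95% interval -0.44 to 0.50) with curcumin. The second estimate was -0.17 without replicate 1 of curcumin and -0.15 without replicate 3 of palmitic acid alone, so it has no direction.

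FOSB, whose product resembles c-Fos and which is best known from neurons, was the least abundant member. It had 2.62, 2.44 and 2.28 TPM with curcumin and CuCl2, 5.36, 2.68 and 2.58 TPM with curcumin, and 5.42, 3.70 and 3.32 TPM with palmitic acid alone. Again the highest value of both groups without CuCl2 was in replicate 1. The CuCl2 libraries were all below those with palmitic acid alone, at a log2 difference of -0.56 (95% interval -1.09 to -0.02), which did not pass (limma adjusted p = 0.339). ERCC1 overlaps FOSB on the opposite strand. The library kit keeps strand, but the setting used in counting is not given in the sources used here.

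FOSL1 and FOSL2 encode FRA-1 and FRA-2, Fos proteins without a strong activation domain that are induced later than c-Fos. FOSL1 had 28.1, 30.4 and 29.3 TPM with curcumin and CuCl2, 33.6, 26.5 and 28.97 TPM with curcumin, and 36.7, 29.6 and 33.6 TPM with palmitic acid alone. FOSL2 had 36.4, 46.6 and 41.5 TPM with curcumin and CuCl2, 40.4, 50.2 and 37.7 TPM with curcumin, and 58.0, 48.9 and 34.2 TPM with palmitic acid alone. Libraries of all groups overlapped for both genes. FOSL2 is overlapped by AC104695.3 on its own strand and FLJ31356 on the opposite strand, so its reads may be shared and its level is uncertain. The 95% intervals with curcumin and CuCl2 were -0.42 to 0.07 for FOSL1 and -0.57 to 0.27 for FOSL2, and with curcumin -0.40 to 0.08 and -0.53 to 0.31. The negative estimates of FOSL2, -0.15 and -0.11, turned to 0.01 and 0.05 without replicate 1 of palmitic acid alone, which held its highest value.

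MYC, whose product is a growth-promoting transcription factor that pairs with MAX, fell with curcumin, in a call that was lost without most single libraries. It had 144, 156 and 147 TPM with curcumin and CuCl2, 137, 150 and 140 TPM with curcumin, and 214, 188 and 173 TPM with palmitic acid alone. All 6 curcumin libraries were below the 3 others. With curcumin MYC fell by 25.6%, or -0.42 on the log2 scale (SE 0.08, limma adjusted p = 0.0412). That call was lost without any of 8 of the 9 libraries (limma adjusted p between 0.0775 and 0.167) and held without replicate 3 of palmitic acid alone (0.0139). Among the 8 were the 3 libraries with CuCl2, which enter the shared estimate of the spread but not this difference. It held in 6 of all 19 alternatives (limma adjusted p from 0.0031 to 0.174). With curcumin and CuCl2 the difference was -0.36 (SE 0.08, limma adjusted p = 0.0776), which passed in 3 of 19 alternatives (limma adjusted p from 0.0058 to 0.281), among them that without replicate 3 of palmitic acid alone (0.0241). It kept its negative sign in all 19 alternatives in both comparisons. The difference between the 2 effects was 0.06 (95% interval -0.13 to 0.25), so passing in one and not in the other shows no difference between them.

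**Figure D4:**
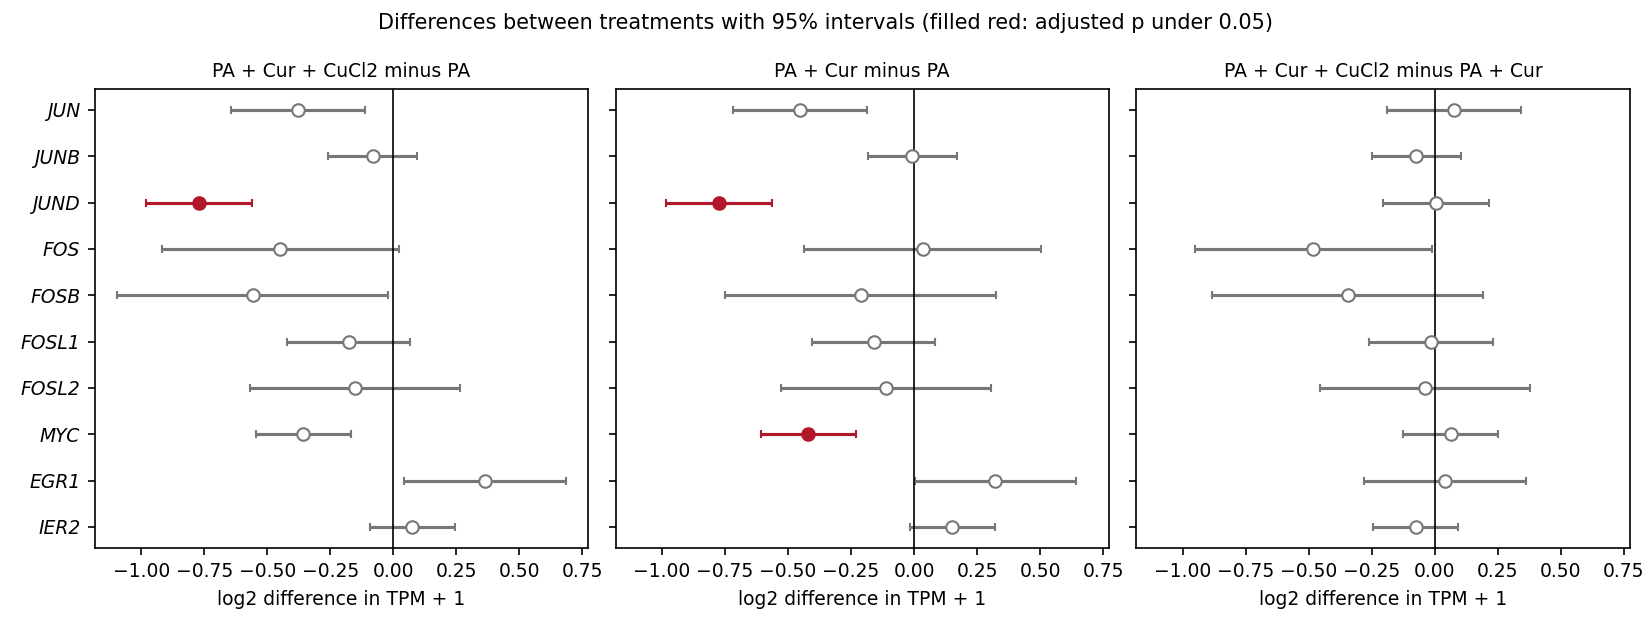
Log2 difference in TPM + 1 (horizontal axis) of each gene in the 3 comparisons, with 95% intervals and filled red points where the limma adjusted p was under 0.05. JUND stands at -0.77 in both comparisons with palmitic acid alone, EGR1 at 0.36 and 0.32, and the interval of every gene but FOS spans 0 when CuCl2 was added to curcumin.

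EGR1 and IER2 had positive estimates, and neither passed. EGR1 encodes a zinc finger transcription factor induced through serum response factor. It had 12.4, 13.4 and 12.3 TPM with curcumin and CuCl2, 12.6, 14.0 and 10.6 TPM with curcumin, and 10.99, 10.4 and 7.82 TPM with palmitic acid alone. The CuCl2 libraries were all above those with palmitic acid alone, while 1 curcumin library overlapped them. The log2 difference was 0.36 (SE 0.14, limma adjusted p = 0.285) with curcumin and CuCl2 and 0.32 (SE 0.14, limma adjusted p = 0.352) with curcumin. Of the 19 alternatives, EGR1 passed only with mitochondrial share as a covariate (limma adjusted p = 0.017 and 0.0215, beside highest values of 0.557 and 0.587 over the alternatives). The mitochondrial share was 13%, 12.5% and 10.1% in the 3 libraries with palmitic acid alone, in which replicate 3 was also lowest in EGR1. The EGR1 promoter (chr5:138465229-138465478, plus strand, 250 bases before the start) is shown because it alone among the 8 windows held the CArG box bound by serum response factor, in capitals.
EGR1: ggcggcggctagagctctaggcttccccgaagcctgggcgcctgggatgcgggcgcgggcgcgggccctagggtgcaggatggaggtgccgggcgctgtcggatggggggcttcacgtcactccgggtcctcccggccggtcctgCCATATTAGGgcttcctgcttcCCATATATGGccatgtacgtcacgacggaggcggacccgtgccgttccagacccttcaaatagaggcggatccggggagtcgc
It has 2 such boxes, starting 105 and 83 bases before the start, and 1.29% of all promoter windows have at least 1. Boxes outside the windows were not searched for, so the other members may have them farther from the start.

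IER2, an immediate early gene with a nuclear product that is less well understood, is overlapped by AC011446.2 on the opposite strand. It had 91.0, 95.4 and 96.1 TPM with curcumin and CuCl2, 107, 90.9 and 100.3 TPM with curcumin, and 87.7, 86.6 and 93.8 TPM with palmitic acid alone. The groups overlapped. The 95% interval was -0.09 to 0.24 with curcumin and CuCl2 and -0.02 to 0.32 with curcumin, so a fall of the size seen for JUND lies outside both. Its estimates were positive in all 19 alternatives.

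CuCl2 added to curcumin changed no member past the test. In this comparison 0% of the 13443 genes passed in limma, and 215 (1.6%) had an unadjusted p under 0.05. Among members only FOS did (unadjusted p = 0.0455, limma adjusted p = 1). Its log2 difference was -0.48 (95% interval -0.95 to -0.01), and its libraries did not overlap, as for 6.24% of all genes tested (2.63% higher and 3.61% lower). FOSB had -0.35 (95% interval -0.88 to 0.19). For JUND the difference was 0.0048 (95% interval -0.20 to 0.21), for JUN 0.07 (-0.19 to 0.34), for MYC 0.06 (-0.13 to 0.25) and for EGR1 0.04 (-0.28 to 0.36).

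By level, MYC and JUND led the 10 genes in each treatment. With palmitic acid alone JUND came first at 224 ± 21.6 TPM and MYC second at 192 ± 20.9 TPM, with overlapping libraries. With curcumin and CuCl2 the order was MYC at 149 ± 6.36 TPM and JUND at 131 ± 9.49 TPM, without overlap, and with curcumin MYC at 143 ± 6.72 TPM and JUND at 130 ± 10.5 TPM, with overlap. IER2 and then JUNB followed in every treatment, and EGR1 and then FOSB came last. In between, FOS, JUN and FOSL2 changed places, and neighbours among them overlapped in every treatment. FOSL1 stood just above EGR1 in each.

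The highest and lowest replicate of a treatment was often the same library across these genes. Among the libraries with palmitic acid alone, replicate 1 was highest in 7 of the 10 members and replicate 3 lowest in 6 (FOS, FOSB, FOSL2, JUN, MYC and EGR1). Replicate 3 was lowest in 14 of 18 other immediate early genes tested as well. With curcumin, replicate 1 was highest in 7 members and replicate 3 in none. With curcumin and CuCl2, replicate 2 was highest in 7 members and replicate 1 lowest in 7. Such counts were not made over all genes tested, so a shift of a whole library cannot be told from a trait of these genes. The median coefficient of variation of the members was 4.84% with curcumin and CuCl2, 11.4% with curcumin and 12.6% with palmitic acid alone. The part of this spread in the differences above was not tested beyond leaving out each library.

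The other genes of the pathway were taken as lists. These were chosen with earlier results of these data known, so their counts and medians are descriptions and not independent support. Of 22 other immediate early genes, 18 were measured above the filter, and EGR2, EGR3, EGR4 and ARC were not. None passed higher, and 2 passed lower with curcumin and CuCl2 and 3 with curcumin, where 0.9% and 1.21% of all genes tested passed lower. Beside medians of -0.03 and -0.02 over all genes tested, those of this list were -0.23 and -0.22. Without replicate 1 of palmitic acid alone these medians were -0.13 and -0.14, and without its replicate 3 -0.35 and -0.30. CCN1, which encodes a matrix protein that binds integrins, had 151, 154 and 156 TPM with curcumin and CuCl2, 147, 137 and 128 TPM with curcumin, and 262, 225 and 206 TPM with palmitic acid alone. It fell by 0.58 (SE 0.09, limma adjusted p = 0.0165) and by 0.74 (SE 0.09, limma adjusted p = 0.00485) on the log2 scale, and passed in 13 and 18 of the 19 alternatives. The first call was lost without replicate 2 of palmitic acid alone, without any replicate of curcumin with CuCl2, with no filter and with only the 2 groups compared, and the second with only the 2 groups compared (limma adjusted p = 0.069). IER3, whose product affects cell survival under stress, fell to 205 ± 7.93 TPM with curcumin and CuCl2 and to 212 ± 8.97 TPM with curcumin, against 264 ± 6.77 TPM with palmitic acid alone (limma adjusted p = 0.0193 and 0.0322), passing in 11 and 6 of the 19 alternatives. GADD45B, a stress sensor gene, fell with curcumin to 46.1 ± 3.24 TPM, against 60.9 ± 1.18 TPM with palmitic acid alone (limma adjusted p = 0.0458), and passed in 6 of the 19. Without single libraries the count with curcumin was 1 for 8 of the 9 and 6 when replicate 3 of palmitic acid alone was left out. With curcumin and CuCl2 it ranged from 0 to 6, with 0 when replicate 2 of palmitic acid alone or any replicate of curcumin with CuCl2 was left out, and 1 and 6 when replicates 1 and 3 of palmitic acid alone were. ZFP36L1, which encodes a protein that speeds mRNA decay, had the largest estimate with curcumin and CuCl2 (-0.74, limma adjusted p = 0.0787) and the second largest with curcumin (-0.66, limma adjusted p = 0.106) and did not pass. The growth inhibitor gene BTG2 had -0.55 with curcumin, and the factor genes KLF6 and KLF2 had -0.65 and -0.61 with curcumin and CuCl2, none past the test.

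Of 24 genes described as AP-1 targets, 12 were above the filter. None passed higher, though 2 had positive estimates in each comparison with palmitic acid alone. IL6 and CD44 fell with curcumin and CuCl2, and IL6, CD44 and PLAUR fell with curcumin. Over all genes tested, 0.9% and 1.21% passed lower in these comparisons. Beside medians of -0.03 and -0.02 over all genes tested, those of this list were -0.30 and -0.26. Leaving out replicate 3 of palmitic acid alone gave -0.40 with curcumin. IL6, the gene of an inflammatory cytokine that NF-kB also controls, had 70.5, 66.8 and 64.3 TPM with curcumin and CuCl2, 65.8, 63.6 and 62.6 TPM with curcumin, and 169, 155 and 143 TPM with palmitic acid alone. CD44, which encodes the hyaluronan receptor, had 80.6, 81.7 and 80.6 TPM with curcumin and CuCl2, 89.5, 90.3 and 86.0 TPM with curcumin, and 161, 126 and 116 TPM with palmitic acid alone. All 6 curcumin libraries lay below the 3 others in both genes. PLAUR, the gene of the urokinase receptor, fell to 29.4 ± 1.58 TPM with curcumin, against 38.7 ± 0.969 TPM with palmitic acid alone (limma adjusted p = 0.0447), and had 29.9 ± 1.77 TPM with curcumin and CuCl2 (limma adjusted p = 0.0638). IL6 passed in all 19 alternatives of both comparisons, CD44 in 14 with curcumin and CuCl2 and 9 with curcumin, and PLAUR in 5 with curcumin. The count with curcumin was 1 without any of 7 libraries, 2 and 3 when replicates 1 and 3 of palmitic acid alone were left out, and with curcumin and CuCl2 it was 1 to 3, being 1 without replicate 2 of palmitic acid alone or any replicate of curcumin with CuCl2. The chemokine gene CCL2 had the second largest estimates, -0.92 with and without CuCl2, and did not pass (limma adjusted p = 0.154 and 0.147).

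**Figure D5:**
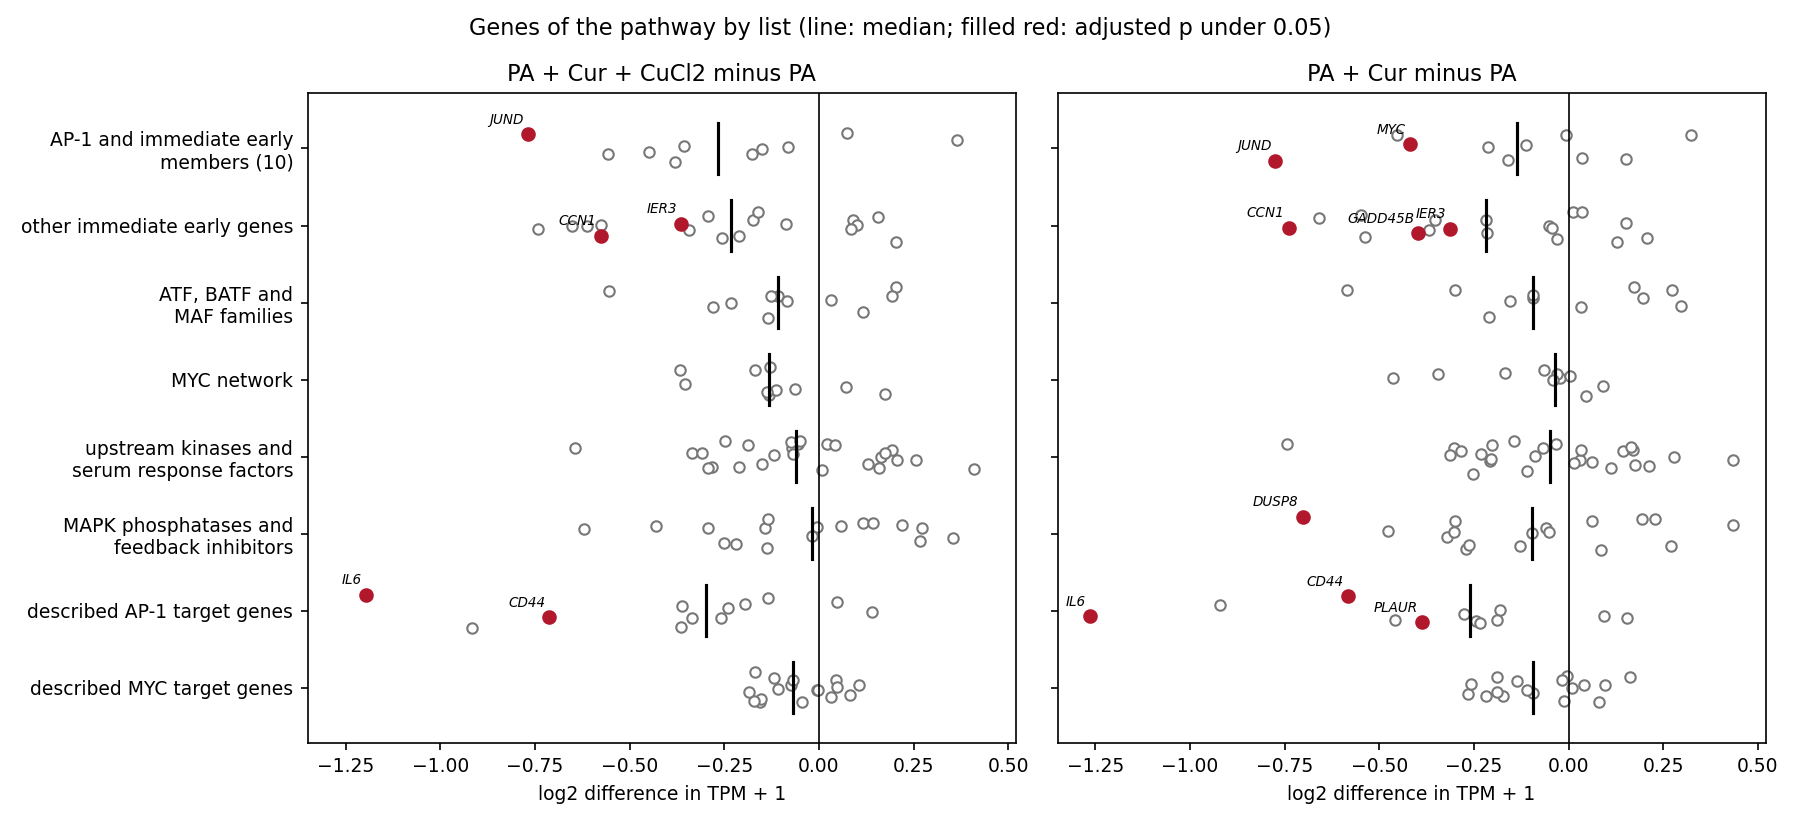
Log2 difference in TPM + 1 of every tested gene of 8 lists (points, spread vertically only to keep them apart) against palmitic acid alone, with the list median as a black line and filled red points where the limma adjusted p was under 0.05. All red points lie below 0, with IL6 and JUND farthest from 0 in both panels, and no gene of the ATF, BATF and MAF, MYC network, upstream kinase or MYC target lists is red.

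Partners and regulators of AP-1 gave 1 call, that of DUSP8 with curcumin, where 1.21% of all genes tested passed lower. Of 11 tested genes of the ATF, BATF and MAF families, none passed in either comparison (medians -0.11 with curcumin and CuCl2 and -0.09 with curcumin). Without replicate 1 of palmitic acid alone the medians were -0.07 and -0.0019, they were -0.07 and -0.05 without replicate 3 of curcumin with CuCl2 and of curcumin, and 1 gene passed lower in each comparison without replicate 3 of palmitic acid alone. ATF3, a stress-induced partner of Jun, had 143, 151 and 145 TPM with curcumin and CuCl2, 142, 161 and 128 TPM with curcumin, and 245, 246 and 165 TPM with palmitic acid alone. Its log2 difference was -0.55 (limma adjusted p = 0.113) and -0.58 (limma adjusted p = 0.0897), and MAFK, a small Maf gene, had -0.28 and -0.30. The factor genes ATF2, at -0.23 with curcumin and CuCl2, and CREB1, at 0.30 with curcumin, came next. Of 17 phosphatases and feedback inhibitors of the MAP kinases, DUSP8, which acts on JNK and p38, fell with curcumin to 8.60 ± 1.31 TPM, against 14.7 ± 2.82 TPM with palmitic acid alone (limma adjusted p = 0.0477), and it had 9.10 ± 0.157 TPM with curcumin and CuCl2 (limma adjusted p = 0.0792). The first call was lost without any of 8 libraries, held without replicate 3 of palmitic acid alone and passed in 6 of the 19 alternatives. Without replicate 3 of palmitic acid alone, 1 gene of this list passed lower with curcumin and CuCl2 too. Next in size in this list were SPRY1 and SPRY4 with curcumin (-0.48 and 0.43), and DUSP10 and DUSP2 with curcumin and CuCl2 (-0.43 and 0.35). The medians of this list were -0.02 with curcumin and CuCl2 and -0.10 with curcumin, and had no stable sign. They were 0.10 and 0.0081 without replicate 1 of palmitic acid alone, and -0.20 and -0.25 without its replicate 3. None of 26 upstream kinase and serum response genes passed (medians -0.06 with curcumin and CuCl2 and -0.05 with curcumin). These medians turned to 0.03 in both without replicate 1 of palmitic acid alone. Without its replicate 3 they were -0.15 and -0.14, with 1 and 2 genes passing lower. Their largest estimate was that of the growth factor receptor gene EGFR, at 59.3, 74.0 and 65.2 TPM with curcumin and CuCl2, 53.9, 81.2 and 52.8 TPM with curcumin, and 137, 114 and 71.0 TPM with palmitic acid alone. The p38 gene MAPK11 had 0.41 and 0.44, and the coactivator gene CREBBP had -0.34 and -0.31. In the comparison of curcumin with CuCl2 against curcumin, no gene of any list passed.

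Beside MYC, none of 10 tested genes of its network of partners and antagonists passed, and none of 17 described MYC targets did. The network's medians were -0.13 with curcumin and CuCl2 and -0.04 with curcumin. They were -0.07 and 0.0027 without replicate 1 of palmitic acid alone. Without its replicate 3 they were -0.22 and -0.15, and 1 gene passed lower with curcumin. The MYC antagonist genes MXD1 and MXD4 had the largest estimates, -0.37 and -0.35 with curcumin and CuCl2 and -0.46 and -0.34 with curcumin. The obligate partner gene MAX had 60.2 ± 5.42 TPM with curcumin and CuCl2, 60.5 ± 9.07 TPM with curcumin and 68.1 ± 10.0 TPM with palmitic acid alone, and the antagonist gene MXI1 had 0.17 with curcumin and CuCl2. Among the targets, the median difference was -0.07 with curcumin and CuCl2 and -0.09 with curcumin, and it turned to 0.01 in both without replicate 1 of palmitic acid alone. The largest were those of SRM, a polyamine synthesis gene (-0.17 and -0.26), and CAD, a pyrimidine synthesis gene (-0.18 and -0.26), with PA2G4 next with curcumin and CuCl2 (-0.17) and LDHA, the lactate dehydrogenase A gene, with curcumin (-0.22).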

How the data were processed

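The authors deposited 1 table of TPM values, 1 column per library, with 2 decimals. The submitters' processing notes name HISAT2 2.1.0, RSEM 1.3.3 and the GRCh38.p13 build, with no roles, and the annotation release is not given in the sources used here. A strand-specific mRNA kit was used, per the labels' protocols. TPM keeps no depth, so no count model, interval or floor from counts was used. Columns were matched to samples by treatment and replicate in their names. The labels do not say that replicates were separate cultures, so p-values rest on spread among libraries that may be technical alone.

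Values of genes averaging 1 TPM or more were taken as log2(TPM + 1), which understates changes of low genes, and all 9 libraries entered 1 model per gene in limma 3.58.1 (R 4.3.3) with a variance trend. Tests were two-sided, with Benjamini-Hochberg adjustment over 13443 genes at 0.05. The fit was tested on simulated data with independent noise, which held no shift shared by the genes of a library. The members and lists were chosen with earlier results of these data known. All members are named, and of each list every gene that passed and up to 3 with the largest difference per comparison. The 19 alternatives used pseudocounts of 0.1 and 5, dropped the filter, raised it to 5 TPM (which leaves out FOSB), or took median-of-ratios scaling, mitochondrial genes left out, mitochondrial share as a covariate, a replicate block, no variance trend, the 2 compared groups alone, and each of the 9 libraries left out. Gene positions are from GENCODE 29 and promoters from RefSeq (GRCh38.p14), with motifs searched on both strands. Figures were drawn with matplotlib 3.10.9.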

Additional observations from a re-analysis of the deposited data

How the results depend on the processing

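JUND kept its call and its sign in both comparisons with palmitic acid alone under all 19 alternatives, between -0.85 and -0.70 on the log2 scale. The count of members passing with curcumin, 2, was 1 with no filter, with mitochondrial genes left out, with no variance trend, with only the 2 groups compared and with the replicate block, 3 under median-of-ratios scaling, 4 with mitochondrial share as a covariate, and 1 to 3 without single libraries. With curcumin and CuCl2 the count of 1 was 2 under median-of-ratios scaling, 3 with mitochondrial share as a covariate and 1 to 3 without single libraries. The cause was not tested. Over all genes, the 264 with curcumin were 104 with no filter, 130 with no variance trend, 35 with only the 2 groups, 1505 with mitochondrial share as a covariate (862 higher and 643 lower, against 102 and 162) and 54 to 619 without single libraries. The 194 with curcumin and CuCl2 were 114 with no filter, 65 with only the 2 groups, 1436 with the covariate (761 higher and 675 lower, against 73 and 121) and 46 to 527 without single libraries. For CuCl2 added to curcumin, the count of 0 was 1 with a pseudocount of 5, 3 with no filter, 3 with only the 2 groups and 0 to 4 without single libraries, with no member among them.

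Signs turned only for estimates that did not pass. With curcumin against palmitic acid alone, FOSL2 was 0.0299 with mitochondrial share as a covariate and JUNB 0.0253 under median-of-ratios scaling. Without single libraries, that comparison ranged from -0.170 to 0.227 for FOS, from -0.320 to 0.0528 for FOSL2 and from -0.0870 to 0.0482 for JUNB, and FOSL2 ranged from -0.360 to 0.0132 with curcumin and CuCl2. For CuCl2 added to curcumin the ranges were -0.0578 to 0.126 for EGR1, -0.0907 to 0.0731 for FOSL1, -0.125 to 0.0784 for FOSL2, -0.0112 to 0.142 for JUN, -0.129 to 0.0059 for JUNB and -0.0590 to 0.0558 for JUND. Same-numbered libraries of different groups had no steady likeness in their deviations (r of -0.27 to 0.25, over 0.1 in 2 of 9 pairs). Different-numbered pairs had r of -0.38 to 0.26, over 0.1 in 4 of 18. Of the 9 libraries, 2 were closest to their own number. With 3 libraries per group, these values cannot tell whether the numbers mark shared cultures. The replicate block gave 177 and 147 genes against palmitic acid alone and 0 for CuCl2 added to curcumin.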

Other observations

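Among the genes searched, those whose pattern over the 9 libraries was most like that of JUND were H19, WFDC1 and C1QTNF6. Likeness is the root mean square difference of centred log2(TPM + 1) values. It was 0.0884, 0.0909 and 0.0961 for these 3, the smallest among 8126 genes of at least 5 TPM with a plain symbol. Plain symbols held only capitals and digits. Names starting with LINC or MIR, or ending in P and a number, were left out, some coding genes among them. H19, an imprinted long noncoding RNA gene, averaged 182 TPM with curcumin and CuCl2, 173 TPM with curcumin and 280 TPM with palmitic acid alone. WFDC1, the gene of a secreted protease inhibitor family member, averaged 32.6, 30.5 and 56.3 TPM in these treatments. Closest to MYC were MYH9, which encodes a nonmuscle myosin heavy chain, SLC43A3, a purine transporter gene, and BDNF, the gene of a neurotrophin, at 0.0386, 0.0421 and 0.0442. MYH9 averaged 185 TPM with curcumin and CuCl2, 180 TPM with curcumin and 236 TPM with palmitic acid alone. These genes were picked for their likeness, so no test is given.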
